A study of Homo sapiens with 6 samples.

Results

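The genes described are 10 that make, break down or sense prostaglandins: PLA2G4A, PTGS1, PTGS2, PTGES, PTGES2, PTGES3, PTGIS, HPGD, PTGER2 and PTGER4. They were picked by symbol with no threshold on measured values, and all 10 were found among the 38900 gene IDs of the table. Transcripts were measured by RNA sequencing after polyA selection in hTERT RPE1, an established human retinal pigment epithelial line immortalised with telomerase. The cells stood at 100% confluency for 5 days, which takes them out of the cell cycle, and then had 6 hours in fresh medium with 0.1% DMSO, the solvent, in 3 libraries or with 100 nM CA4 (combretastatin A4), a small molecule that binds tubulin and takes microtubules apart, in the other 3. Both groups thus share the line, the confluent rest and the change of medium. It is a single cell line, and nothing in the labels says that replicates came from separate cultures, so p-values measure only the spread between these libraries, which may be technical.

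Prostaglandins are short-lived lipid signals made from arachidonate, a fatty acid held in membrane phospholipids. Cytosolic phospholipase A2 frees it, a cyclooxygenase turns it into an unstable intermediate, and a terminal synthase turns that into prostaglandin E2, prostacyclin or another prostanoid. The products leave the cell, act on receptors of the same or neighbouring cells, and are inactivated by oxidation after uptake. The constitutive cyclooxygenase is encoded by PTGS1, and the inducible enzyme, the product of PTGS2, is one of the classical early response genes to cytokines, growth factors and stress. In the eye, prostaglandins are best known as mediators of inflammation and, through drugs that act on the prostaglandin F receptor, as regulators of eye pressure.

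Each library held between 19524936 and 22538004 reads, 1 read was worth between 0.9349 and 1.122 normalized counts (reads divided by the authors' factor for the library), and a count of 0 allows up to 3 reads, which covers counting error only. The test covered 13928 genes whose mean over the 6 libraries reached 10 normalized counts. As a check on the treatment, all 10 alpha and beta tubulin genes listed had negative log2 fold changes in CA4. Of these, 9 were lower at a limma adjusted p under 0.05, against 1.97% of all tested genes. Among them, TUBB3 fell from 6822.0 ± 817.8 to 1024.5 ± 96.8 normalized counts (SD, n = 3 each, log2 fold change -2.73, adjusted p = 0.000287 by limma). Of 11 markers of retinal pigment epithelium, the visual cycle and pigment genes RLBP1, TYR and TYRP1 had at most 6 reads in any library, RPE65 lay between 13.5 and 40.8 normalized counts, and the keratin gene KRT8 lay between 14118.3 and 16502.3. Of the leukocyte markers, CD3E, ITGAM and TYROBP had no read in any library and PTPRC had 10 reads in DMSO and 20 in CA4, while CD68 (means of 796.7 and 634.4 normalized counts) and CSF1R (128.1 and 107) were read in both groups and not called. The transcription factor gene OTX2 and the growth factor receptor gene PDGFRA, of the epithelial and the fibroblast list, fell in CA4 (limma adjusted p = 0.0158 and 0.0147). They were the only genes called among 8 tested epithelial and 6 tested fibroblast markers.

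The promoters of PTGS2 and PLA2G4A are shown because these are neighbouring protein-coding genes on chromosome 1, transcribed away from each other, whose log2 fold changes below have opposite signs. The 250 bases before each start site are printed 5′ to 3′ on the strand of the gene, from RefSeq on GRCh38.p14, at chr1:186680424-186680673 (minus strand) for PTGS2 and chr1:186828699-186828948 (plus strand) for PLA2G4A. Capitals mark matches to 8 motifs searched on both strands.
PTGS2: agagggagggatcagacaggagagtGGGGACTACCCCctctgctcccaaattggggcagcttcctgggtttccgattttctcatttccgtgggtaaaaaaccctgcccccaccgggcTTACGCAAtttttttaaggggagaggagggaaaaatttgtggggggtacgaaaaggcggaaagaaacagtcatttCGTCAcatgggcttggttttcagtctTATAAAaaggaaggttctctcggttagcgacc
PLA2G4A: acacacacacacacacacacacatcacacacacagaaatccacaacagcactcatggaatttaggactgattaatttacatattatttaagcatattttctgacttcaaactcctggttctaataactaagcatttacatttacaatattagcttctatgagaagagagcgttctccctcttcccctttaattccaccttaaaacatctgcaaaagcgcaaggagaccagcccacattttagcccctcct

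The search covered 300 bases, from 250 before to 50 after the start. In the PTGS2 window, the loose NF-kB site (GGG and CC around any 5 bases) matched in overlapping positions from -225 to -214. TTNCNNAA, a C/EBP site, matched from -133 to -126. TGACG, the core of a cyclic AMP response element, matched on the opposite strand from -58 to -54, and again after the start from 25 to 29. TATAAA matched from -32 to -27. The AP-1 site, TGANTCA, had no match there. The same held for the E-box, which was searched only in the form CACGTG. Nor was there a match to the TEAD site, GGAATG, or to the CArG box bound by SRF. The PLA2G4A window held no match to any of the 8. These motifs are common: of 35116 promoters of the same length, 58.7% held the NF-kB site, 36.8% the C/EBP site, 24.6% the cyclic AMP response element core, 14% the TEAD site, 11.5% TATAAA, 7.71% the AP-1 site, 7.26% the E-box and 1.29% the CArG box. RefSeq promoters were found for 9 of the 10 genes, in 13 windows. The NF-kB site was present in 8 of those 9 genes, TGACG in 4, the C/EBP site in 3, the E-box and TATAAA in 2 each, and the AP-1, TEAD and CArG motifs in none. These counts are per gene, and some genes had several windows, while the shares above are per window. A match is a description of the letters and not a bound site.

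**Figure D1:**
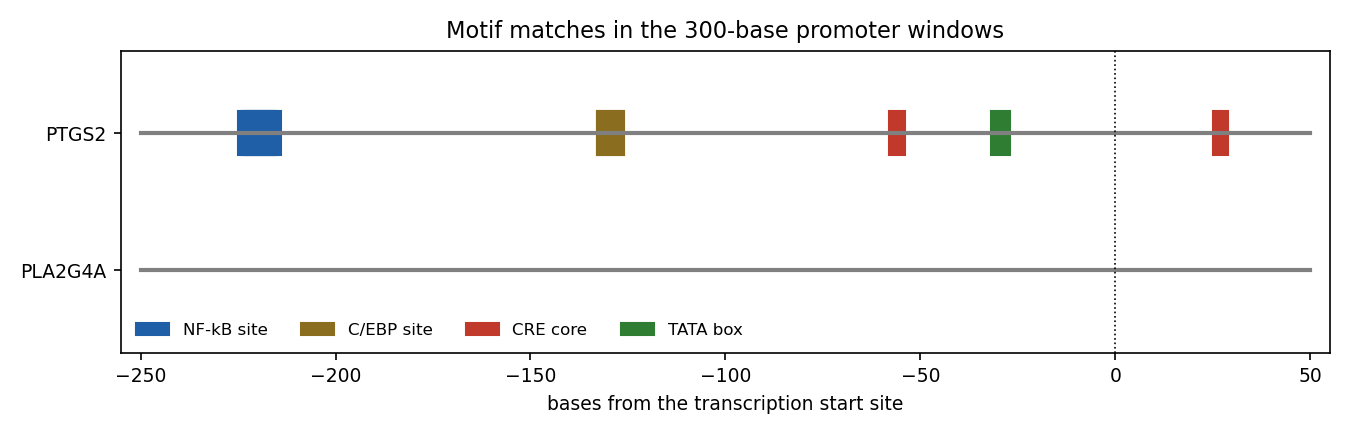
Positions of motif matches on the 300-base promoter windows of PTGS2 and PLA2G4A, with the distance from the transcription start in bases on the x axis; boxes are matches on either strand, and overlapping matches are merged. PTGS2 carries matches from -225 to -214, -133 to -126, -58 to -54, -32 to -27 and 25 to 29, and PLA2G4A carries none.

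PTGS2, the inducible cyclooxygenase (ENSG00000073756, chr1:186671791-186680427 on the minus strand, GENCODE 29), rose in CA4. In replicates 1, 2 and 3, in this order here and below, DMSO had 73.4, 52.4 and 54.1 normalized counts and CA4 had 347.9, 116.7 and 395.7. Every CA4 library lay above every DMSO library, but CA4 replicate 2 lay far below the other CA4 libraries. The group mean was 60.0 ± 11.7 for DMSO and 286.8 ± 149.2 for CA4 (SD, n = 3 each). On the log2(normalized count + 1) scale the difference was 2.07 (SE 0.45, 95% interval 1.04 to 3.11), a 4.21-fold higher level, with a limma adjusted p of 0.0442. Of all tested genes, 4.94% passed the same threshold, 2.97% higher and 1.97% lower, and PTGS2 was the only one of the 7 tested prostaglandin genes that did. Groups without overlap were seen for 27.7% of all tested genes, with CA4 higher for 14.3%. When libraries were scaled to the same total instead, 34.8% of all calls were in the higher direction, against 60.0% in the values reported here, and PTGS2 was still called (log2 fold change 1.97, adjusted p = 0.0464). In bulk RNA, a change in the number of cells that express a gene and a change in RNA per cell cannot be told apart.

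The direction of PTGS2 was the same in all 18 alternative fits, with log2 fold changes from 1.75 to 2.63, and the call was kept in 12. It was lost without a variance trend (adjusted p = 0.0957) and when a library was left out, with 1 exception. The adjusted p was 0.0501 without DMSO replicate 1, 0.151 without DMSO replicate 2, 0.151 without DMSO replicate 3, 0.135 without CA4 replicate 1 and 0.132 without CA4 replicate 3. Without CA4 replicate 2 it was 0.0103, with a log2 fold change of 2.63. The count models gave 0.0363 (edgeR) and 6.26e-06 (DESeq2), each with a log2 fold change of 2.26. The summed level of 5 endothelial markers was also lowest in CA4 replicate 2 among the CA4 libraries, at 2152.4, 1646.0 and 3862.0 normalized counts in replicates 1, 2 and 3 against 1860.1, 1690.3 and 1271.5 in DMSO. None of the 5 was at 0, and their part in the PTGS2 values was not tested.

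**Figure D2:**
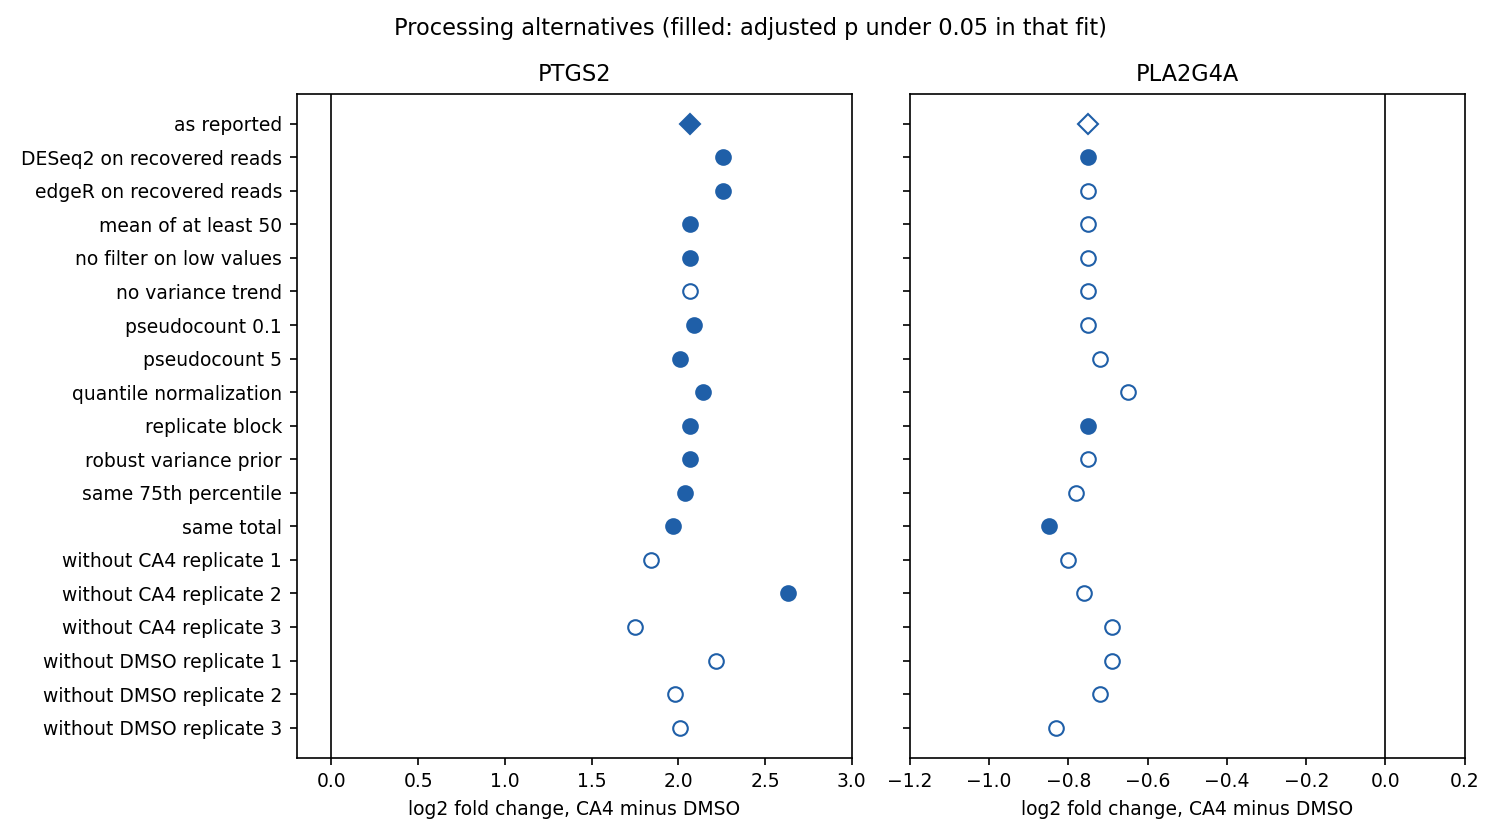
Log2 fold change (CA4 minus DMSO, x axis) of PTGS2 and PLA2G4A in the values as reported (diamond) and in each of 18 alternative fits (circles); filled symbols have an adjusted p under 0.05 in that fit. PTGS2 stays between 1.75 and 2.63 and is called in 12 alternatives, and PLA2G4A stays between -0.85 and -0.65 and is called in 3.

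PTGS1, the constitutive cyclooxygenase (ENSG00000095303, chr9:122370530-122395703), was barely read in either group and was under the filter. It had 5, 5 and 2 reads in the DMSO libraries and 6, 2 and 6 in the CA4 libraries, 12 and 14 in all. With no filter on low values its log2 fold change was 0.27 (SE 0.57, limma adjusted p = 0.833). The log2 ratio of PTGS2 to PTGS1, each with 1 normalized count added, was 3.67, 3.23 and 4.25 for the DMSO libraries and 5.68, 5.18 and 5.69 for the CA4 libraries. The groups did not overlap, with means of 3.72 ± 0.51 and 5.52 ± 0.29 (SD, n = 3 each), and the difference of 1.8 had a two-sided exact permutation p of 0.1, the smallest that 3 libraries against 3 can give. The ratio rests on the few PTGS1 reads given above.

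PLA2G4A, which encodes the cytosolic phospholipase A2 that frees arachidonate (ENSG00000116711, chr1:186828953-186988981 on the plus strand), had lower values in every CA4 library but did not pass the threshold. It was read at 141.0, 135.6 and 116.8 normalized counts in DMSO and at 83.1, 78.5 and 71.3 in CA4. The replicates of each group lay close together and the groups did not overlap, with means of 131.1 ± 12.7 and 77.7 ± 5.94 (SD, n = 3 each). Groups without overlap in this direction were seen for 13.4% of all tested genes. The log2 fold change was -0.75 (SE 0.18, 95% interval -1.16 to -0.33) with a limma adjusted p of 0.0564. Of the 18 alternatives 3 brought the adjusted p under 0.05, namely DESeq2 (0.026), the replicate number as a block (0.0279) and scaling to the same total (0.0432). It was between 0.0968 and 0.176 when a library was left out. PLA2G4A starts 149 kb from the start of PTGS2 on the opposite strand, so the step that supplies the substrate and the step that uses it are encoded side by side.

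The terminal synthases of prostaglandin E2 showed no called change. PTGES, the inducible membrane-bound synthase that often works with PTGS2 (ENSG00000148344, chr9:129738331-129753047), was close to the limit of detection, with 4, 4 and 0 reads in DMSO and 3, 0 and 2 in CA4, and was also under the filter (log2 fold change -0.29, SE 0.79, adjusted p = 0.88 without it). PTGES2, a second membrane-associated synthase (ENSG00000148334, chr9:128120693-128128462), was read at 662.5, 656.3 and 620.1 normalized counts in DMSO and at 644.6, 654.1 and 752.3 in CA4. These groups overlapped, and the log2 fold change was 0.08 (95% interval -0.16 to 0.32, limma adjusted p = 0.7), with a sign that turned to -0.023 when libraries were scaled to the same total. PTGES3, better known as p23, is a cytosolic synthase and a co-chaperone of HSP90 (ENSG00000110958, chr12:56663341-56688408). It was read at 4230.1, 3664.8 and 3291.2 normalized counts in DMSO and at 3564.4, 3612.9 and 3650.2 in CA4. The CA4 libraries all lay within the DMSO range, the log2 fold change was -0.04 (95% interval -0.27 to 0.20, limma adjusted p = 0.859), and it was 0.055 without DMSO replicate 1. Of the 50-base words in PTGES3 exons, 6.96% also occur in other genes, pseudogenes such as PTGES3P1 among them, so part of its reads may be counted elsewhere. For both PTGES2 and PTGES3 the intervals leave out changes as large as that of PTGS2.

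PTGIS, the prostacyclin synthase of the cytochrome P450 family and best known from blood vessel walls (ENSG00000124212, chr20:49503874-49568146), differed more between libraries than between groups. It was read at 678.9, 953.6 and 962.9 normalized counts in DMSO and at 680.4, 855.0 and 1722.0 in CA4. Only CA4 replicate 3 lay above the DMSO range. The means were 865.1 ± 161.3 and 1085.8 ± 557.8 (SD, n = 3 each), and the log2 fold change of 0.23 (95% interval -0.53 to 0.99, limma adjusted p = 0.727) became -0.16 without CA4 replicate 3. In the same library all 5 endothelial markers of the list (PECAM1, VWF, CDH5, TIE1 and KDR) had their highest value. VWF, the gene of von Willebrand factor, was read at 756.2, 675.0 and 509.0 normalized counts in DMSO and at 805.1, 717.0 and 1732.0 in CA4. The summed level of the 5 ran from 1271.5 to 1860.1 in DMSO and from 1646.0 to 3862.0 in CA4, none of them was called, and none was at 0. Their part in the PTGIS values was not tested.

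**Figure D3:**
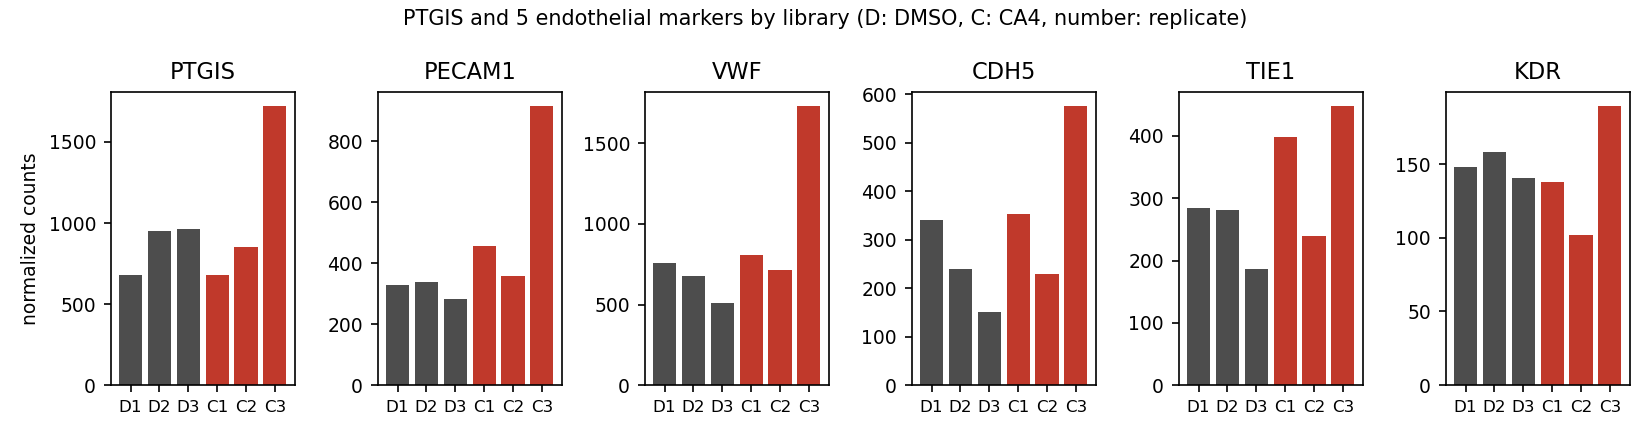
Normalized counts (y axis, from 0) of PTGIS and of 5 endothelial markers in each of the 6 libraries (x axis; D, DMSO; C, CA4; the number is the replicate); each bar is 1 library. PTGIS reaches 1722.0 and VWF 1732.0 in CA4 replicate 3, the highest library for all 6 genes.

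HPGD, the dehydrogenase that takes the first step in inactivating prostaglandins (ENSG00000164120, chr4:174490177-174523154), was hardly read. It had 1, 6 and 4 reads in DMSO and 0, 4 and 2 in CA4, or 11 and 6 in all. It was under the filter, and without the filter its log2 fold change was -0.60 (SE 0.75, limma adjusted p = 0.695). The 0 in CA4 replicate 1 allows up to 3 reads.

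The EP2 and EP4 receptors of prostaglandin E2, encoded by PTGER2 and PTGER4, both couple to the stimulatory G protein and raise cyclic AMP. PTGER2 (ENSG00000125384, chr14:52314305-52328606) was read at 30.9, 40.2 and 34.2 normalized counts in DMSO and at 29, 19.1 and 8.92 in CA4. The groups did not overlap, but the CA4 libraries were spread widely, with a mean of 35.1 ± 4.71 (SD, n = 3) in DMSO and of 19 with a coefficient of variation of 52.9% (n = 3) in CA4. The log2 fold change of -0.98 (SE 0.45, 95% interval -2.04 to 0.07) had a limma adjusted p of 0.246, and no alternative brought it under 0.05. When a library was left out, the log2 fold change ran from -1.35 to -0.55. PTGER4 (ENSG00000171522, chr5:40679498-40693735) was read at 94.6, 80.4 and 99.7 normalized counts in DMSO and at 96.6, 104.3 and 64.6 in CA4. Its groups overlapped, and its log2 fold change of -0.07 (95% interval -0.63 to 0.48, limma adjusted p = 0.894) became 0.14 without CA4 replicate 3 and 0.011 with quantile normalization.

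Of the 7 tested genes, 3 had positive and 4 negative log2 fold changes, with a median of -0.04 against -0.008 over all tested genes. PTGS2 was called higher and none was called lower by limma. At an unadjusted p under 0.05 there was 1 gene in each direction, against 11.9% higher and 11% lower over all tested genes. The count models called 1 higher and 0 lower with edgeR, against 2.8% and 1.82% of all tested genes, and 1 higher and 1 lower with DESeq2, against 6.92% and 5.39% of the 13105 genes to which it gave an adjusted p. These shares also stand behind the counts of the related lists below.

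**Figure D4:**
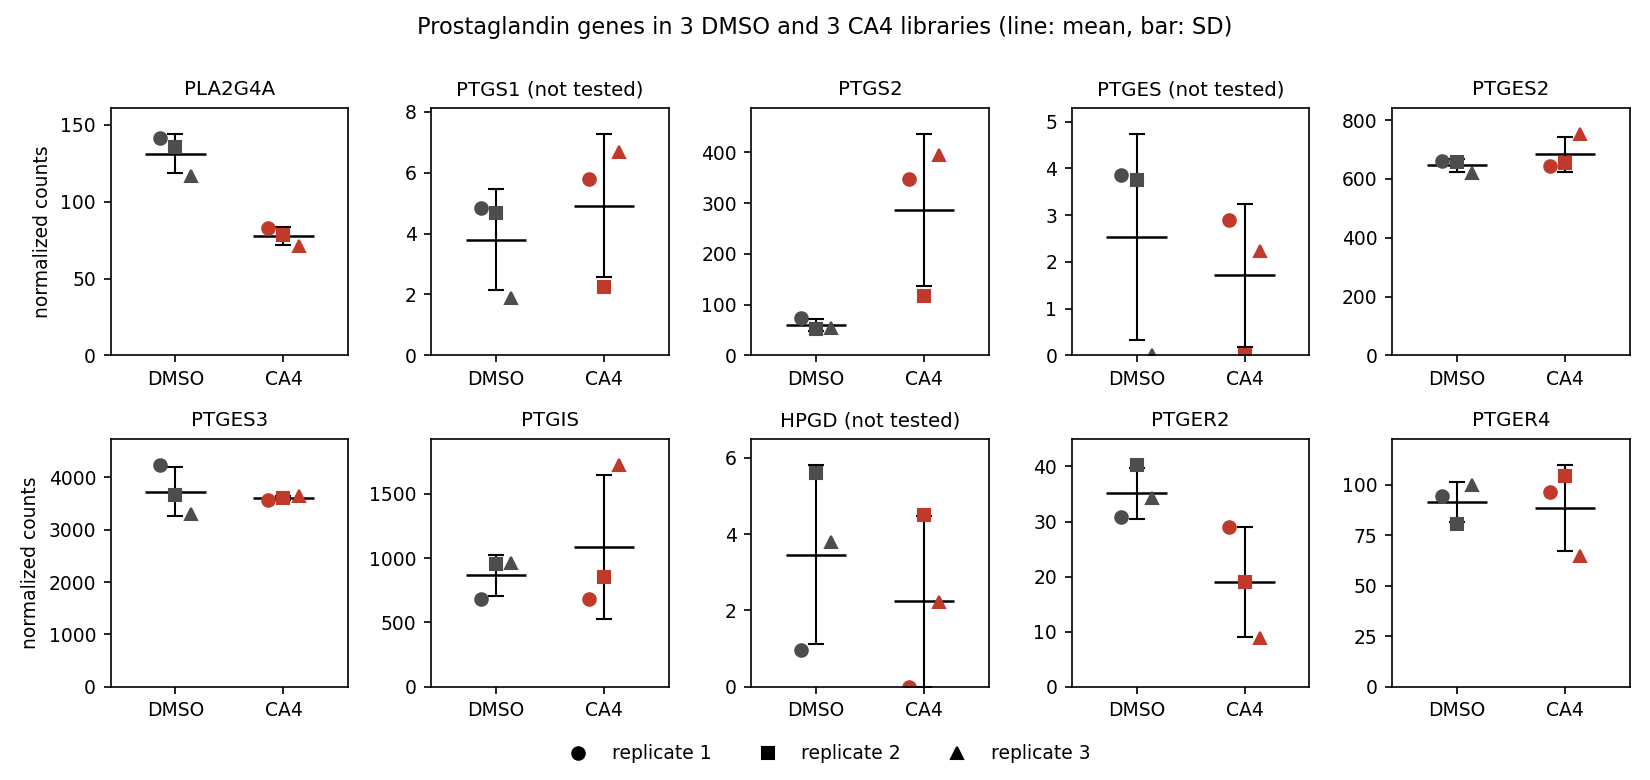
Normalized counts (y axis, from 0, with its own scale for each gene) of the 10 prostaglandin genes in 3 DMSO and 3 CA4 libraries; symbols are libraries by replicate number, the line is the group mean and the bar the SD. The CA4 libraries of PTGS2 (116.7 to 395.7) all lie above DMSO, those of PLA2G4A (71.3 to 83.1) and PTGER2 (8.92 to 29) all lie below, and PTGS1, PTGES and HPGD were under the filter.

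Levels of different genes were compared per kb of exons of protein-coding transcripts. In DMSO, PTGES3 had the highest level, 1795.2 ± 227.6 normalized counts per kb, above 96.3% of tested genes. PTGES2 followed at 266.6 ± 9.46 per kb, PTGIS at 155.1 ± 28.9, PLA2G4A at 45.6 ± 4.42 and PTGER4 at 23.8 ± 2.6 (SD, n = 3 each). The ranges of these neighbours did not overlap. PTGER2 at 14.2 ± 1.91 and PTGS2 at 13.3 ± 2.59 normalized counts per kb overlapped, and PTGS2 then lay above only 12.1% of tested genes. PTGES at 1.43 ± 1.24, HPGD at 0.746 ± 0.505 and PTGS1 at 0.669 ± 0.29 per kb overlapped at the bottom. In the solvent control the highest transcript levels were thus those of 3 terminal synthases, and both cyclooxygenases were low. In CA4, PTGS2 moved from rank 7 to rank 4 at 63.5 ± 33.1 normalized counts per kb. Its range overlapped that of PLA2G4A, at 27.0 ± 2.07 per kb, because of CA4 replicate 2.

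The length of life of an mRNA is one point at which PTGS2 is known to be controlled. ATTTA is the core of AU-rich elements, which lie in the 3′ UTR and bind proteins that speed or slow decay. In the transcript with the longest coding sequence, the PTGS2 3′ UTR of 2562 bases held 22 ATTTA words, or 8.59 per kb. Of 12670 tested genes with a 3′ UTR, 2.23% had as many, and the median was 2. PLA2G4A had 4 in 473 bases, a similar density of 8.46 per kb that 2.1% of the tested genes reached. PTGER4 had 9 and 6.63 per kb, PTGES3 had 6 and 5.28 per kb, and PTGER2 had 5 and 4.34 per kb. HPGD had 5, PTGS1 3, PTGIS 2, PTGES 1 and PTGES2 0. PTGS2 and PLA2G4A thus had the densest words, and a link between word density and fold change was not tested. These are counts of letters in GENCODE 29 transcripts and not measurements of decay.

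Other genes of the pathway were read from lists of related function. Of 8 tested further prostanoid enzymes, limma called 1 higher and 0 lower, against 2.97% and 1.97% of all tested genes, and the median log2 fold change was -0.14. At an unadjusted p under 0.05, 1 was higher and 2 were lower, edgeR called 1 higher and 0 lower, and DESeq2 called 1 higher and 1 lower. The gene called was CBR3, a carbonyl reductase whose relative CBR1 reduces prostaglandin E2, with means of 285.4 ± 18.8 in DMSO and 488.8 ± 43.7 after CA4 (normalized counts, SD, n = 3 each; log2 fold change 0.77, SE 0.12, adjusted p = 0.0185). CBR3 shares 42.2% of its exon bases with the antisense gene CBR3-AS1, and without knowledge of the strand setting their reads cannot be told apart. Among 5 tested genes of prostanoid receptors, transporters and the receptor-associated PTGFRN, limma, edgeR and DESeq2 each called 0 higher and 1 lower. These were the same counts as at an unadjusted p under 0.05, and the median was -0.27. That gene was PTGFR, the prostaglandin F receptor. PTGFR was read at 187.4, 145.8 and 131.0 normalized counts in DMSO and at 79.3, 71.8 and 59.1 in CA4. The groups did not overlap, and the log2 fold change was -1.13 (SE 0.21, limma adjusted p = 0.0305).

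The list of phospholipases A2 and arachidonate release, which also holds the phospholipase A2 inhibitors ANXA1, ANXA2 and S100A10, showed 0 calls among 13 tested by limma, with a median of -0.16. At an unadjusted p under 0.05, 1 was higher and 3 were lower, edgeR called 0, and DESeq2 called 1 higher and 2 lower. The 3 lower genes were those inhibitors, whose log2 fold changes were -0.25 for ANXA1, -0.26 for ANXA2 and -0.42 for S100A10, with adjusted p by limma of 0.0813, 0.168 and 0.109. The smallest limma adjusted p was that of MGLL, the monoacylglycerol lipase that is another source of arachidonate, with means of 2268.3 and 3077.0 normalized counts in DMSO and CA4 (log2 fold change 0.44, adjusted p = 0.0545). In the list of 15 fatty acid desaturases, elongases, ligases and acyltransferases around arachidonate, limma called 1 higher and 2 lower, with a median of -0.16. Before adjustment 3 were higher and 4 were lower at p under 0.05, edgeR called 1 higher and 2 lower, and DESeq2 called 2 higher and 3 lower. FADS2, the rate-limiting desaturase of arachidonate synthesis, fell from 6079.9 ± 711.0 to 3275.8 ± 348.0 normalized counts (log2 fold change -0.89, SE 0.12, adjusted p = 0.0117). LPCAT2, a lysophospholipid acyltransferase, fell from 6604.0 ± 757.1 to 4272.4 ± 499.9 (log2 fold change -0.63, SE 0.12, adjusted p = 0.0291). FADS3, a relative of FADS2 that acts mainly on sphingoid bases, rose from 1626.7 ± 315.1 to 2700.6 ± 384.8 (SD, n = 3 each; log2 fold change 0.74, SE 0.16, adjusted p = 0.0441).

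The sister branch that turns arachidonate into leukotrienes was read in part, with 7 of 15 lipoxygenase and leukotriene genes tested, 0 called by limma and a median of 0.01. At an unadjusted p under 0.05, 2 were higher and 1 was lower, edgeR called 0, and DESeq2 called 2 higher and 0 lower. The smallest adjusted p was that of LTB4R2, a leukotriene B4 receptor, at 0.0595 (log2 fold change 0.77), which shares 39.5% of its exon bases with CIDEB. Of 22 tested genes of cyclic AMP signalling downstream of EP2 and EP4, limma called 0, edgeR 0 and DESeq2 0, with a median of 0.02. In that list 0 were higher and 1 was lower at an unadjusted p under 0.05, and the smallest adjusted p was that of PRKAR2B, a regulatory subunit of protein kinase A, at 0.187 (log2 fold change -0.43).

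Transcription factors known to act on the PTGS2 promoter had mostly positive log2 fold changes. Of 24 tested, 18 had positive and 6 negative log2 fold changes, and the median was 0.37. Over all tested genes, 6806 were positive and 7122 negative, and the median was -0.008. In this list limma called 4 higher and 1 lower, against 2.97% higher and 1.97% lower over all tested genes. At an unadjusted p under 0.05, 12 were higher and 4 were lower, edgeR called 3 higher and 1 lower, and DESeq2 called 6 higher and 1 lower. NFKB2, the gene of the p100 NF-kB subunit, rose from 1698.3 ± 284.7 to 3610.1 ± 643.4 normalized counts (log2 fold change 1.09, SE 0.16, adjusted p = 0.0166). ATF3, a stress-induced factor of the CREB family, rose from 23.2 ± 9.82 to 77.3 ± 15.6 (log2 fold change 1.77, SE 0.39, adjusted p = 0.0471). It was not called with edgeR (adjusted p = 0.052), with a mean of at least 50 (0.0516) or with no filter (0.0634). The AP-1 genes FOSL2 and JUNB rose from 2552.0 ± 515.2 to 4634.3 ± 192.9 and from 1768.1 ± 135.8 to 2527.3 ± 322.1 (adjusted p = 0.0198 and 0.0471), and JUNB shares 14.2% of its exon bases with HOOK2. USF1, a factor of E-boxes, fell from 697.0 ± 50.4 to 483.2 ± 16.4 (SD, n = 3 each; log2 fold change -0.53, SE 0.10, adjusted p = 0.0325). In the printed PTGS2 window the motifs searched for NF-kB, C/EBP and CREB/ATF matched, while TGANTCA and CACGTG did not. Other forms of the AP-1 site and the E-box were not searched. No C/EBP gene was among those called by limma, and the part of these factors in the PTGS2 values was not tested.

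Among 13 tested RNA-binding proteins of AU-rich mRNAs limma called 0, with a median of 0.01. At an unadjusted p under 0.05, 2 were higher and 3 were lower, edgeR called 0, and DESeq2 called 1 higher and 0 lower. ZFP36, the gene of tristetraprolin, which promotes the decay of such mRNAs, had the smallest adjusted p, with means of 221.3 and 359.0 normalized counts in DMSO and CA4 (log2 fold change 0.69, adjusted p = 0.0647). Of 8 tested genes of glucocorticoid and interleukin 1 signalling, limma called 0 higher and 1 lower, with a median of -0.05. Before adjustment 1 was higher and 2 were lower at p under 0.05, edgeR called 0 higher and 1 lower, and DESeq2 called 1 higher and 2 lower. The gene called by limma was TSC22D3, the glucocorticoid-induced leucine zipper, which fell from 1201.4 ± 275.3 to 688.8 ± 48.6 normalized counts (SD, n = 3 each; log2 fold change -0.78, SE 0.17, adjusted p = 0.0445). Over all lists other than the tubulins, 11 of 114 genes were called, or 9.65%, against 4.94% of all tested genes. FADS2 was called in 5 of the 6 fits that leave out a library, and not without DMSO replicate 3 (adjusted p = 0.0629), and the other 10 were called in 0 to 2 of the 6, with adjusted p up to 0.16. All 11 calls were lost without a variance trend, with adjusted p from 0.0563 for CBR3 to 0.108 for JUNB. JUNB was also lost with quantile normalization (0.0641), an equal 75th percentile (0.0534), an equal total (0.0727) and no filter (0.0542). FADS3 was also lost with quantile normalization (adjusted p = 0.055) and an equal total (0.0649), and TSC22D3 with quantile normalization (0.0543). All 11 kept their direction in every alternative fit.

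**Figure D5:**
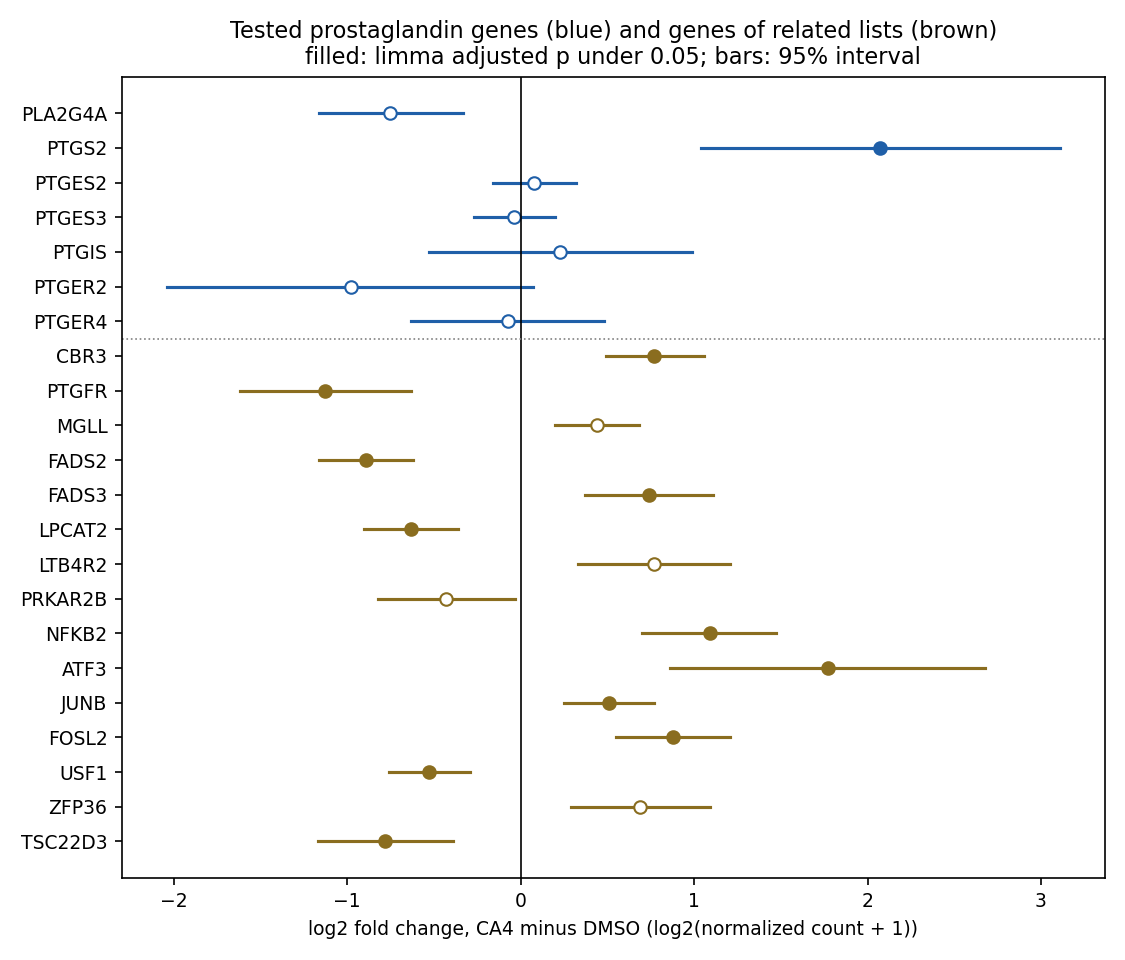
Log2 fold change (CA4 minus DMSO, x axis) with its 95% interval for the 7 tested prostaglandin genes (blue) and the named genes of the related lists other than the tubulins (brown); filled symbols have a limma adjusted p under 0.05. PTGS2, at 2.07, lies highest with an interval from 1.04 to 3.11, and PTGFR, at -1.13, lies lowest among the filled symbols.

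The genes whose log2 values followed PTGS2 most closely over the 6 libraries, among 11688 whose mean reached 50 normalized counts, were GOT1 (Pearson r = 0.997), EIF2S3 (0.995), HSPA13 (0.994), EPRS1 (0.992) and an unnamed gene, ENSG00000229929 (0.991). GOT1 is an aspartate aminotransferase, EIF2S3 a subunit of a translation initiation factor, HSPA13 a chaperone of the HSP70 family and EPRS1 a transfer RNA synthetase. GOT1 was read at 1066.2, 986.3 and 989.5 normalized counts in DMSO and at 1528.0, 1232.0 and 1626.2 in CA4. It thus had the order of PTGS2, with CA4 replicate 2 nearest to DMSO, but a log2 fold change of 0.52 (adjusted p = 0.0523). None of the 5 was called by limma. The libraries share group and depth in these correlations, which are a description. Among the prostaglandin genes with a mean of at least 50, r with PTGS2 was -0.844 for PLA2G4A, 0.616 for PTGES2, 0.33 for PTGIS, -0.411 for PTGER4 and -0.051 for PTGES3.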

How the data were processed

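PolyA RNA of 3 DMSO and 3 CA4 libraries was sequenced. The submitters' processing notes name Trim Galore 0.6.6, FastQC 0.12.1, STAR 2.7.9a, Salmon 1.8.0, DESeq2 1.44.0 and GRCh38, and the annotation release and strand setting are not given in the sources used here. The authors deposited a signal, normalized counts, in which each gene's reads are divided by a library factor, with a column for each library per the file headers. All values (100%) were whole multiples of a library's 1-read step (tolerance 0.01), so reads were recovered, which may be rounded estimates. Symbols came from the supplied gene tables, with an entry for 35803 of 38900 IDs.

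Genes with a mean of at least 10 were tested with limma 3.58.1 (R 4.3.3, moderated test with a variance trend, treatment only) on log2(normalized count + 1), which understates changes of low genes. The p-values are two-sided and adjusted by Benjamini-Hochberg over 13928 genes, with a threshold of 0.05, and errors of fold changes are limma's standard errors. The log2 ratio used an exact permutation test. Alternatives were pseudocounts of 0.1 and 5, no filter, a mean of at least 50, quantile normalization, an equal 75th percentile or total, no trend, a robust prior, the replicate number as a block, each library left out, and edgeR 4.0.16 and DESeq2 1.42.0 on recovered reads. Scripts were tested on simulated data. Named genes are all 10 prostaglandin genes, each list gene past the threshold or otherwise the one with the smallest adjusted p, and the 5 genes most correlated with PTGS2; others are marked. The genes, lists and tests were chosen with earlier results of these data known. Gene positions, exon lengths and 3′ UTRs are from GENCODE 29, and the printed sequences from RefSeq (GRCh38.p14). FAM213B, PLA2G10 and the antisense gene PACERR were not analysed here.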

Additional observations from a re-analysis of the deposited data

How the results depend on the processing

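Genes called over the whole table numbered 688, against 1613 with DESeq2, 643 with edgeR, 103 without a variance trend, and 81 to 994 when a library was left out. The prostaglandin genes called numbered 1, against 2 with DESeq2 and with scaling to the same total (PTGS2 and PLA2G4A), 0 without a variance trend, and 0 to 1 when a library was left out. The list genes called, tubulins included, numbered 20, against 34 with DESeq2, 6 without a trend, and 7 to 26 when a library was left out. Deviations of same-numbered libraries correlated at 0.202, 0.159 and 0.0588, and those of differently numbered libraries at -0.214 to 0.0741. The same-numbered values were thus all positive but low. No label states a shared culture, so the numbers were not taken as pairs, and whether they are pairs remains unknown. With the replicate number as a block, 2397 genes, 2 prostaglandin genes (PTGS2, adjusted p = 0.00891, and PLA2G4A, 0.0279) and 44 list genes were called. Among these list genes were MGLL and LTB4R2 (limma adjusted p = 0.00651 and 0.0329), which were not called without the block. The difference between groups in the log2 ratio of PTGS2 to PTGS1 stayed at 1.8 with it. That difference ran from 1.76 to 1.92 under other pseudocounts and scalings, and from 1.56 to 2.06 when a library was left out. A library factor largely cancels in such a ratio, and a balanced block leaves the difference unchanged by design. The sign turned for PTGES2 (-0.023 with the same total), PTGES3 (-0.13 to 0.055 when a library was left out), PTGIS (-0.16 to 0.51) and PTGER4 (0.011 with quantile normalization, -0.20 to 0.14 when a library was left out), none of them called. Scaling to the same total moved the median of all genes by -0.101. The causes of these shifts were not tested. Of the 36 named genes that were tested, 21 were called, and the 6 called in every alternative were all tubulins. Depth limited PTGS1, PTGES and HPGD, which were tested only with no filter and had at most 6 reads in any library.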

Other observations

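The genes within 1 Mb of PTGS2 on chromosome 1 gave values beside those of PTGS2 and PLA2G4A. TPR, a protein of the nuclear pore, was read at 2736.0, 3239.4 and 3519.1 normalized counts in DMSO and at 3862.1, 2748.9 and 2650.5 in CA4, with a log2 fold change of -0.05 (limma adjusted p = 0.893). ODR4 was read at 372.8, 342.2 and 397.9 in DMSO and at 467.8, 412.9 and 546.1 in CA4, with a log2 fold change of 0.35 (adjusted p = 0.182). HMCN1, an extracellular matrix protein, varied between libraries from 2557.4 to 6816.4, with a log2 fold change of -0.19 (adjusted p = 0.831). PRG4 and PDC were under the filter.

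IL1B, a gene of interleukin 1, a classical inducer of PTGS2, and IL1R1, a gene of its receptor, had values in opposite directions. Neither passed limma's threshold, and both genes were singled out after their values were seen. Of the same list, IL1A and IL1RAP were not called either (log2 fold changes 0.77 and 0.02, limma adjusted p = 0.417 and 0.972). IL1B was read at 181.6, 71.1 and 59.8 normalized counts in DMSO and at 495.8, 219.9 and 249.7 in CA4, with a log2 fold change of 1.70 (limma adjusted p = 0.0808, edgeR 0.101, DESeq2 0.00526). IL1R1 was read at 281.0, 153.3 and 202.3 in DMSO and at 133.4, 103.2 and 108.1 in CA4, with a log2 fold change of -0.84 (limma adjusted p = 0.0898, edgeR 0.0885, DESeq2 0.023), so DESeq2 alone called both. In both genes the groups did not overlap, as in 27.7% of all tested genes.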
